A study of Gossypium hirsutum with 8 samples.

Results

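Aux4 (LOC107923964) is a gene of upland cotton (Gossypium hirsutum) that the Affymetrix cotton array reads through 4 probe sets, which are groups of short oligonucleotides designed against 1 transcript sequence. These 4 are all the probe sets whose single gene in the platform's probe table carries the RefSeq synonym Aux4, out of 24029 probe sets tested and 520 genes that such probe sets name. The gene was chosen by its flooding differences on these same arrays. In 2 of its 4 probe sets they were above 0 and called in both tissues. Its flooding values are therefore given below as a description, without a test. The study compared 4 groups of 2 arrays, each array holding total RNA of cultivar Sicot 71 plants grown in soil in a glasshouse to the stage of 2 leaves. Flooded root was whole root taken after 4 h with the root system under water, and control root came from plants watered as usual. Flooded leaf was the first leaf taken after 24 h of the same flooding, and control leaf came from unflooded plants. Tissue and time of flooding therefore differed together and cannot be told apart. The question behind the series is how cotton transcripts respond when roots are waterlogged. The labels call the replicates biological and do not say how many plants were pooled for an array.

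Auxin is the plant hormone that directs cell elongation, root branching and the formation of new roots. Cells sense it through the TIR1/AFB receptors, which mark Aux/IAA proteins for destruction. Aux/IAA proteins are short-lived nuclear repressors that hold back the auxin response factors (ARF), the transcription factors of the pathway. Many Aux/IAA genes are themselves switched on by auxin, so that the pathway brakes itself. In flooded plants auxin is known to act together with ethylene in the formation of adventitious roots. Cotton genes with Aux symbols have been described as members of the Aux/IAA family. The tables used here give Aux4 a symbol and a locus but no protein name, so that role is background and not a measurement. Transcript signal does not report the amount of a protein that is regulated by its breakdown.

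Values are signals on the log2 scale, on which a difference of 1 is a doubling. Group medians over all probe sets were alike within a tissue, but the lowest signals lay between 3.99 and 4.10 on root arrays and between 2.49 and 2.65 on leaf arrays, so root and leaf signals had different floors. Control root replicate 2 stood apart. The 2 control root arrays correlated least (r = 0.953 across probe sets, against 0.984 to 0.994 in the other groups). The 52 reporter probe sets, which read marker genes that are not the plant's own, had a median of 5.52 on that array and 4.92 to 5.003 on the other root arrays. Rubisco activase (RCA1), a defining leaf transcript, read 14.5 to 14.7 on the leaf arrays and 5.22 to 5.89 on the root arrays. No probe set with a symbol of the root markers sought (Casparian strip proteins and nitrate transporters) was found.

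The 4 probe sets of Aux4 fell into 2 pairs. GhiAffx.1868.1.S1_a_at and GhiAffx.1868.2.A1_at were higher after flooding in both tissues. GhiAffx.1868.1.A1_s_at and GhiAffx.1868.2.S1_a_at were dim, and their flooded values overlapped the control values in root. In this manufacturer's naming the numbers before the last dot mark a sequence cluster and the letters S and A its 2 orientations. Clusters 1868.1 and 1868.2 each thus had one orientation whose flooded arrays lay above the control arrays in both tissues. In the other orientation this did not hold in both.

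**Figure D1:**
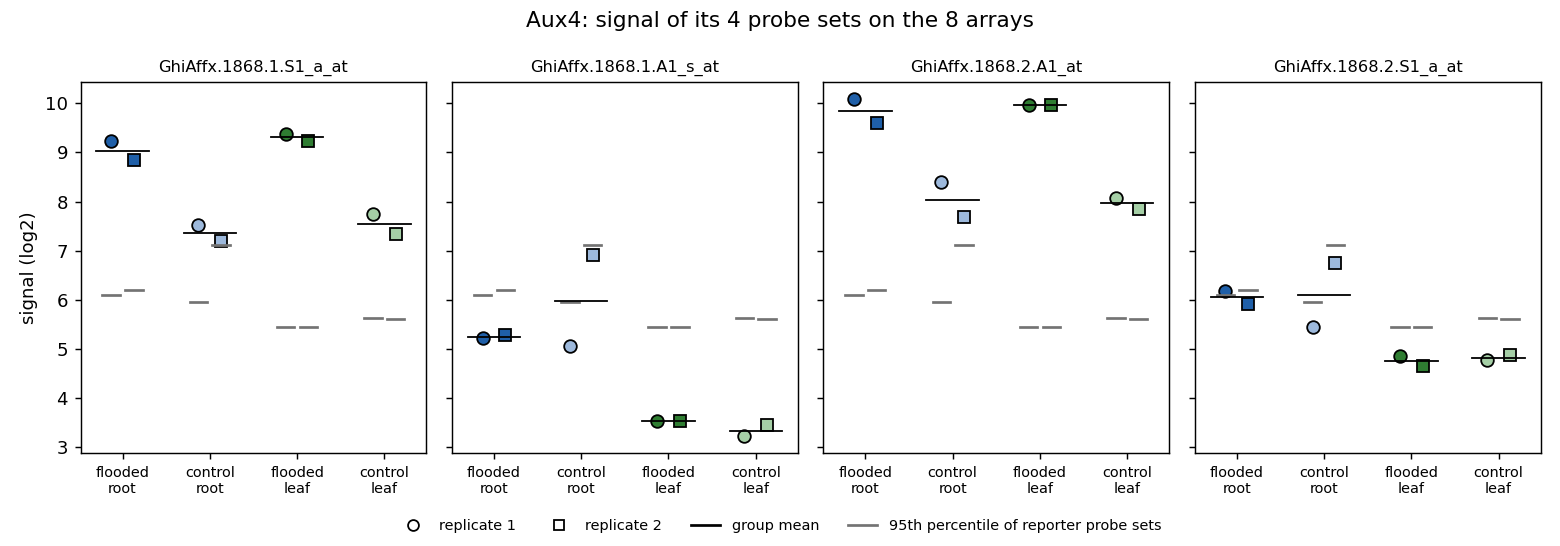
Signal (log2) of the 4 Aux4 probe sets on each array, by group, with circles for replicate 1, squares for replicate 2, black lines for group means and grey ticks for the 95th percentile of 52 reporters on that array. GhiAffx.1868.1.S1_a_at and GhiAffx.1868.2.A1_at lie higher on every flooded array than on the control arrays of the same tissue, and the other two probe sets lie at or under the grey ticks on nearly every array.

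In root, GhiAffx.1868.1.S1_a_at read 9.23 and 8.84 in flooded root, against 7.52 and 7.20 in control root. The groups did not overlap, and the lower flooded array lay above the higher control array. The means were 9.04 ± 0.28 in flooded root and 7.36 ± 0.23 in control root (SD, n = 2 each), a difference of 1.68 on the log2 scale (SE 0.23) or 3.19-fold. GhiAffx.1868.2.A1_at read 10.09 and 9.60 in flooded root, against 8.40 and 7.68 in control root. Its groups did not overlap either, and replicate 1 was the higher array in both. The means were 9.84 ± 0.35 in flooded root and 8.04 ± 0.51 in control root (SD, n = 2 each), a difference of 1.80 (SE 0.28) or 3.48-fold.

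In leaf, GhiAffx.1868.1.S1_a_at read 9.39 and 9.24 in flooded leaf, against 7.74 and 7.34 in control leaf. All flooded values again lay above all control values. The means were 9.31 ± 0.11 in flooded leaf and 7.54 ± 0.28 in control leaf (SD, n = 2 each), a difference of 1.77 (SE 0.23) or 3.41-fold. GhiAffx.1868.2.A1_at read 9.97 on both flooded leaf arrays, against 8.08 and 7.85 in control leaf. This was the tightest pair of the gene. The difference was 2.01 (SE 0.28), or 4.02-fold, the largest of the gene's 8 flooding differences.

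The linear model fitted over all probe sets (limma, Benjamini-Hochberg adjusted p under 0.05) called 2 of the 4 Aux4 probe sets higher in flooded root, where it called 6.4% of all probe sets higher. It called the same 2 higher in flooded leaf, where it called 2.21% of all probe sets higher. Higher in both tissues were 67 probe sets or 0.279% of all. Of these 3 carried a gene name, as did only 324 of all 24029 probe sets. The 3 were 2 of Aux4 and 1 of CHS3, a chalcone synthase of flavonoid synthesis (1.01 in root and 1.16 in leaf). Since these contrasts chose the gene, nothing is read from the counts. Most Aux4 calls in leaf were lost with 1 leaf array left out. In root the call of GhiAffx.1868.2.A1_at was lost without flooded root replicate 1. Fewer of all probe sets were called higher in the fits that lost a call. The root call of GhiAffx.1868.2.A1_at was also lost with each tissue fitted alone (limma adjusted p = 0.0712). With each array left out in turn, GhiAffx.1868.1.S1_a_at ran from 1.48 to 1.87 in root and from 1.57 to 1.97 in leaf. GhiAffx.1868.2.A1_at ran from 1.44 to 2.16 in root and from 1.89 to 2.12 in leaf. Both flooded arrays lay above both control arrays for 25% of all probe sets in root, 25.5% in leaf and 7.96% in both. In size, the larger Aux4 difference ranked 578 of 24029 in root and 48 of 24029 in leaf. The cutoffs of the next count are the smaller of these Aux4 differences, so nothing is read from it or from the ranks. Higher by at least 1.68 in root and at least 1.77 in leaf were 5 probe sets, the 2 of Aux4 among them. Of the other three, none carried a gene name, and the differences were largest in Ghi.8943.2.A1_s_at (4.00 in root and 3.09 in leaf). Recomputed with the Aux4 differences of the remaining arrays, that count was 8 without flooded root replicate 1 and 20 without control leaf replicate 2.

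**Figure D2:**
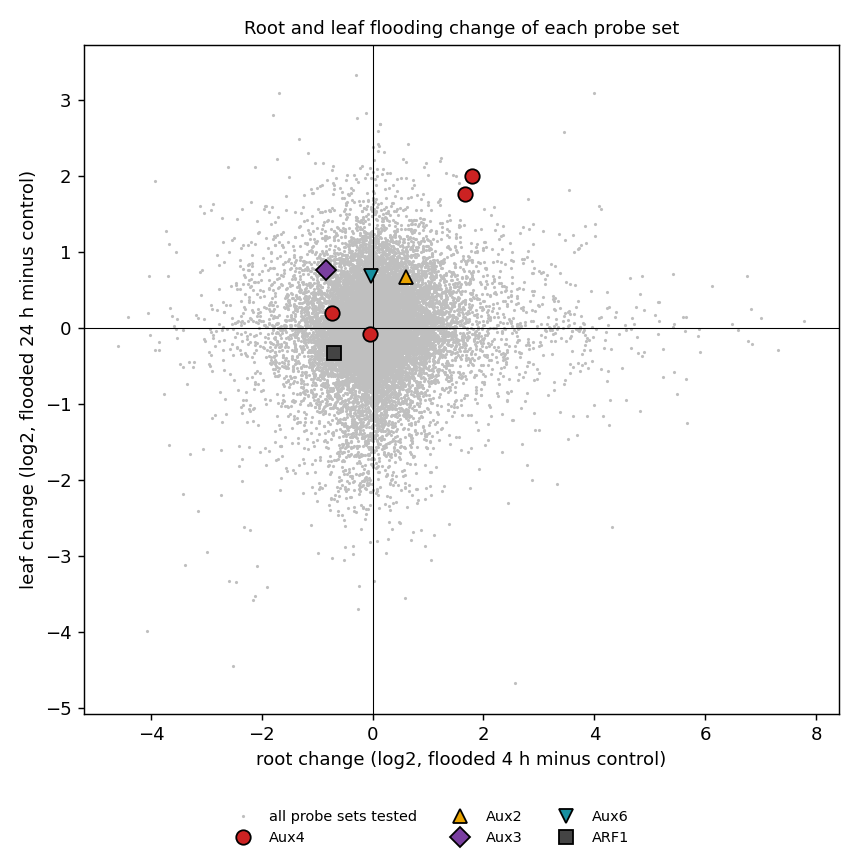
Root change against leaf change (log2, flooded minus control) of all 24029 probe sets in grey, with Aux4 and the other auxin-list genes marked. The 2 responding Aux4 probe sets stand at 1.68 and 1.77, and at 1.80 and 2.01, in a thinly filled corner, while the other two stand at -0.73 and 0.19, and at -0.05 and -0.08.

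The opposite-orientation partners behaved differently. GhiAffx.1868.1.A1_s_at read 5.22 and 5.27 in flooded root, against 5.05 and 6.90 in control root. The flooded values lay between the control values. In leaf it read 3.54 and 3.52 in flooded leaf, against 3.22 and 3.45 in control leaf, a difference of 0.19 (SE 0.51). Both flooded leaf values lay above both control values, as for 25.5% of all probe sets. GhiAffx.1868.2.S1_a_at read 6.18 and 5.92 in flooded root, against 5.44 and 6.75 in control root. In leaf it read 4.84 and 4.65 in flooded leaf, against 4.78 and 4.87 in control leaf, and the groups overlapped in both tissues. Both probe sets were highest in control root replicate 2. On that array the reporter probe sets had a 95th percentile of 7.12, against 5.96 to 6.19 on the other root arrays. Its part in these values was not tested, and the root differences depended on it. For GhiAffx.1868.1.A1_s_at the root difference was -0.73 with all arrays and 0.20 without control root replicate 2. For GhiAffx.1868.2.S1_a_at it was -0.05 with all arrays and 0.61 without that array. Without control root replicate 1 the root differences were -1.66 and -0.71, in the same order.

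Taking the reporters' 95th percentile on the same array as a bound, the dim probe sets lay below it on every array but 1, flooded root replicate 1, where GhiAffx.1868.2.S1_a_at read 6.18 against 6.09. The bright probe sets lay above that bound on all 8 arrays. The margin was smallest for GhiAffx.1868.1.S1_a_at on control root replicate 2 (7.20 against 7.12). If that level is background, its fold in root is a lower limit.

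Set against its own control mean, each bright probe set moved by a like amount on each flooded array. On flooded root replicate 1 they stood 1.87 and 2.05 above the control mean, and on flooded root replicate 2 1.48 and 1.56 above it. On flooded leaf replicate 1 they stood 1.85 and 2.00 above, and on flooded leaf replicate 2 1.69 and 2.01 above. GhiAffx.1868.2.A1_at was thus the higher of the pair by 0.08 to 0.31 on all 4 flooded arrays. Flooded root replicate 1 was higher than flooded root replicate 2 in both. Probe sets of a gene share the RNA and the arrays, so their accord does not add replicates.

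The gaps between the orientations hold the flooding differences that chose the gene, so they too are a description. In cluster 1868.1 the changes of the 2 orientations differed by 2.40 in root and 1.58 in leaf. In cluster 1868.2 they differed by 1.85 in root and 2.08 in leaf. Over 1749 clusters of the main cotton sequences with 1 probe set in each orientation, the median gap was 0.37 in root and 0.33 in leaf. Of the 1749 clusters, 146 had one orientation called higher in root and 50 had both. In leaf 47 had one and 1 had both. The root gaps of Aux4 were 1.32 and 0.83 without control root replicate 2, and 3.49 and 2.87 without control root replicate 1. Within Aux4 the changes of the 4 probe sets spanned 2.53 in root and 2.08 in leaf. The median span was 0.55 in root and 0.48 in leaf over the 52 named genes with several probe sets. Of those 52 genes, 6 had 4 or more probe sets. A span can only grow as probe sets are added, so these spans are not like for like. Which orientation matches the Aux4 transcript is not given in the tables used here.

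The root change minus the leaf change is built from the differences that chose the gene, so it is given as a description. It was -0.09 for GhiAffx.1868.1.S1_a_at (95% interval -0.86 to 0.67) and -0.21 for GhiAffx.1868.2.A1_at (95% interval -1.13 to 0.72). The dim probe sets stood at -0.92 and 0.03. None of the 4 was called, where 8.26% of all probe sets were called in either direction (limma, 0 of the 4 at an unadjusted p under 0.05). The intervals of the bright probe sets still allow a change 0.86 or 1.13 log2 units smaller in root, so equal responses were not shown. For GhiAffx.1868.1.A1_s_at this difference was -1.85 without control root replicate 1 and 0.0044 without control root replicate 2.

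**Figure D3:**
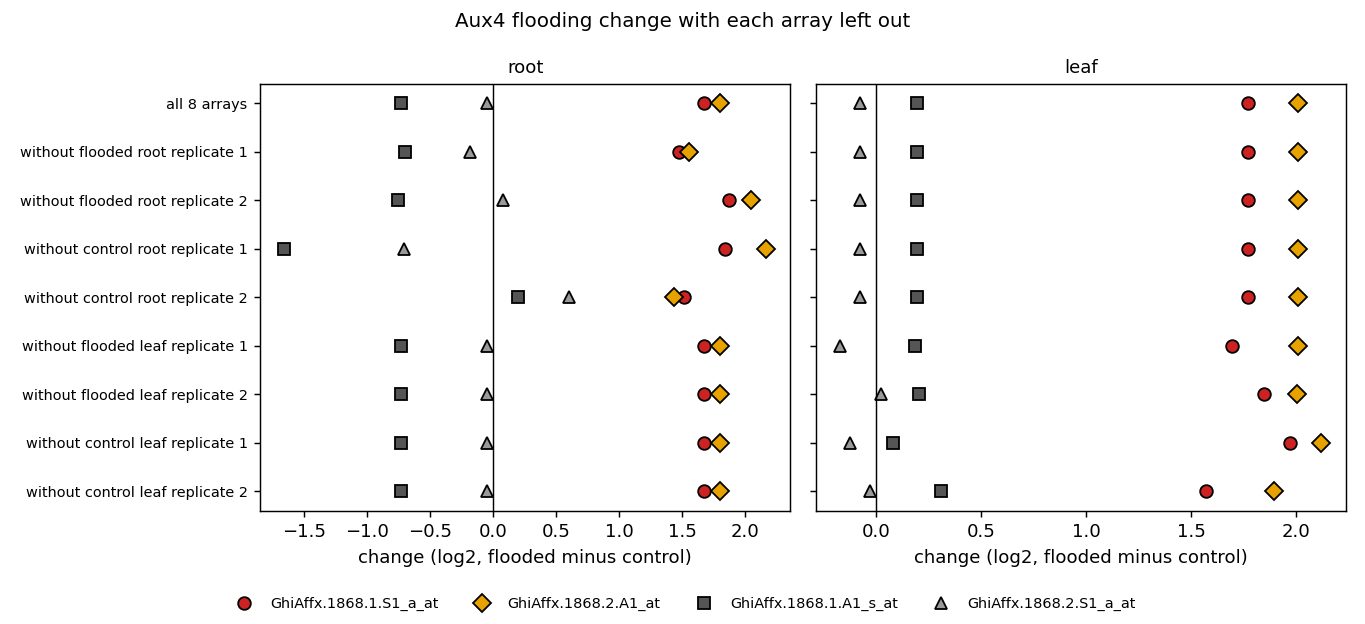
Flooding change (log2, flooded minus control) of the 4 Aux4 probe sets in root and leaf, with all 8 arrays and with each array left out. The bright probe sets stay between 1.44 and 2.16 in root and between 1.57 and 2.12 in leaf. Both dim ones change sign in root with control root replicate 2 left out.

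As deposited, the levels of GhiAffx.1868.1.S1_a_at ran from flooded leaf (9.31) over flooded root (9.04) and control leaf (7.54) to control root (7.36). For GhiAffx.1868.2.A1_at the order was flooded leaf (9.97), flooded root (9.84), control root (8.04) and control leaf (7.96). In both, the flooded groups of the 2 tissues differed from each other by no more than 1 SD of flooded root, and so did the control groups by no more than 1 SD of the more variable one. The control tissues differed by -0.18 (control root minus control leaf, limma adjusted p = 0.493) and 0.08 (limma adjusted p = 0.812) in the bright probe sets, while 76.8% of all probe sets were called between these groups. The median over all probe sets of the difference control root minus control leaf was itself 1.08. Relative to it the bright probe sets stood at -1.26 and -1.004. After quantile normalization over the 8 arrays that median was 0.08, and the bright probe sets stood at -0.66 (limma adjusted p = 0.0445) and -0.40 (limma adjusted p = 0.173). The dim probe sets were called higher in control root as deposited (2.64 and 1.27, limma adjusted p = 0.00206 and 0.0166), as were 66.5% of all probe sets. They were not called after that normalization (1.69 and 0.55, limma adjusted p = 0.0765 and 0.397). The direction thus differed between probe sets under either scaling, and which differences were called depended on the scaling. Whether unflooded root or leaf holds more Aux4 transcript was therefore not settled. Within the root or leaf, more transcript per cell and more of the cells that make it cannot be told apart.

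Of 7 genes with an Aux symbol in the RefSeq table, 4 had a single-gene probe set on the array. Besides Aux4 these were Aux2, Aux3 and Aux6, with 1 probe set each. The auxin list also held ARF1, a symbol used both for an auxin response factor and for an ADP-ribosylation factor, so its place is uncertain. No probe set was matched to the receptor TIR1 or to the PIN auxin exporters. Of the 8 probe sets on the list, 2 were called higher in flooded root, both of Aux4, 1 was called lower and 5 did not pass. Over all probe sets 4.28% were called lower in root. In flooded leaf 2 were called higher, both of Aux4, and 6 did not pass. None was called lower (0 of 8, with limma, beside 3.05% of all probe sets). On the list 4 had an unadjusted p under 0.05 (limma), all of them higher, and 2 of these were the bright probe sets of the chosen gene Aux4. Over all 24029 probe sets 2349 were higher at that threshold. The median change of the list was -0.04 in root, beside -0.02 over all probe sets, and 0.68 in leaf, beside -0.04 over all probe sets. Without the 4 probe sets of Aux4, a gene chosen for the rise of 2 of them, it was -0.36 in root and 0.68 in leaf.

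**Figure D4:**
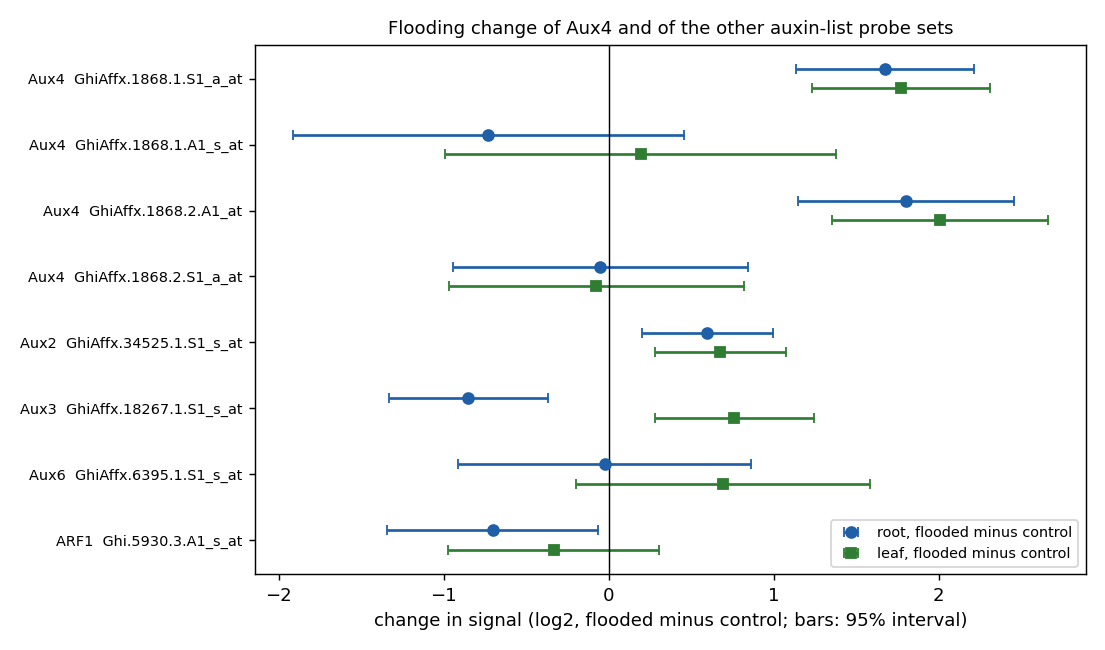
Change in signal (log2, flooded minus control) of the 4 Aux4 probe sets and of Aux2, Aux3, Aux6 and ARF1 in root (circles) and leaf (squares), with 95% intervals from the linear model. Aux3 is the member whose root change (-0.85) and leaf change (0.76) lie on opposite sides of 0 with neither interval reaching it.

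Aux3 (LOC107906148) moved in a different way from Aux4. It read 9.13 and 9.25 in flooded root, against 10.07 and 10.01 in control root. Both flooded arrays lay below both control arrays, as they did for 21.4% of all probe sets, and the fall of 0.85 on the log2 scale (SE 0.21) passed the test (limma adjusted p = 0.0398). In leaf it read 10.44 and 10.55 in flooded leaf, against 9.48 and 9.98 in control leaf. The flooded leaf values lay above the control values, and 5.55% of all probe sets shared this combination of a root below and a leaf above its controls. The leaf difference of 0.76 (SE 0.21) did not pass (limma adjusted p = 0.0848). The root change minus the leaf change was -1.61 (95% interval -2.29 to -0.93, limma adjusted p = 0.0181), where 3.47% of all probe sets were called in that direction. The root call was lost without control root replicate 2 (limma adjusted p = 0.0503), without either flooded root array (0.155 and 0.245) and without either flooded leaf array (0.0908). It was also lost with array weights (0.144), with each tissue fitted alone (0.0945) and with the replicate block (0.0521).

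Aux2 (LOC107941658) resembled Aux4 in direction, with smaller differences. It read 10.39 and 10.60 in flooded root, against 9.90 and 9.90 in control root. It read 11.82 on both flooded leaf arrays, against 11.07 and 11.23 in control leaf. The groups did not overlap in either tissue, as for 7.96% of all probe sets with both tissues higher. The differences of 0.60 in root and 0.68 in leaf did not pass (limma adjusted p = 0.0693 and 0.0674).

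Aux6 (LOC107928986) read 9.06 and 9.32 in flooded root, against 9.62 and 8.80 in control root. It read 9.45 and 9.36 in flooded leaf, against 8.20 and 9.23 in control leaf. Its control arrays differed more from each other than its group means did in either tissue, and no contrast of flooding passed (limma adjusted p = 0.987 in root and 0.394 in leaf). ARF1 read 12.04 and 12.02 in flooded root, against 12.93 and 12.53 in control root. This difference of -0.70 did not pass (limma adjusted p = 0.18), nor did the leaf difference of -0.33 (limma adjusted p = 0.614).

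Likeness to Aux4 was measured over the 8 arrays as the root mean square difference between signals centred on each tissue's mean. The profile was the mean of all 4 Aux4 probe sets, dim ones included, whose changes were 0.67 in root and 0.97 in leaf. The 5 nearest named genes were COL5-D (0.15), Aux2 (0.22), CPR2 (0.22), CHS3 (0.24) and MYB1 (0.24), where the median over all probe sets was 0.52. COL5-D stood at 0.96 in root and 0.69 in leaf. CPR2 stood at 0.20 in root and 1.06 in leaf, and MYB1, of the MYB transcription factors, at 0.50 and 1.19. The nearest of all probe sets was Ghi.1266.1.S1_s_at (0.07), which carries no gene name. With the profile of the 2 bright probe sets alone, a choice made after the values were seen, the nearest named genes were KT (0.34), CHS3 (0.47), PAP1 (0.47), NAC5 (0.50) and SOS2 (0.50), beside a median of 0.97. KT stood at 1.64 in root and 1.36 in leaf. CHS3 was among the 5 nearest named genes for both profiles. The profiles share the 2 bright probe sets and hold the differences that chose the gene, so nothing is read from this likeness.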

How the data were processed

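Total RNA of 8 samples was hybridised to the Affymetrix cotton array, 1 array each, and the sample titles gave each array's group and replicate number. The authors deposited log2 signals for 24132 probe sets. Per the submitters' processing notes RMA and limma were used, without a version or a stated role. RMA compresses small signals, so folds of dim probe sets may be understated, and the table has no detection call. The manufacturer's 103 control probe sets were left out. In limma 3.58.1 under R 4.3.3, the other 24029 were fitted with 1 mean per group, all 8 arrays together, without a filter or pseudocount. Benjamini-Hochberg adjustment ran over all of them, with a threshold of 0.05. Residual degrees of freedom were 4, to which the prior added 3.48. The number of arrays limits the precision, since the lowest two-sided p of an exact permutation test here is 0.333. Each p-value rests on the spread between replicate arrays, pooled over all groups, and on a prior drawn from all probe sets. A flooding p-value thus also draws on the arrays of the other tissue.

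The platform's probe table gave the genes, joined by identifier to the RefSeq gene table of Gossypium_hirsutum_v2.1. All 697 probe sets with 1 gene matched, 46 had several genes, and 324 had a name other than a locus number. Probe sets may read both the A and D copies of a gene. The auxin list was matched by symbol and synonym, since the tables give no product names, and a lipid transfer protein gene that lists GH3 among its synonyms was left out. The rule for named genes took Aux4, every matched member of the auxin list, and the genes most like Aux4. The gene and the lists were chosen with earlier results of these data known. The alternatives covered scaling, the variance model, array weights, a filter on low signals, each tissue alone, the replicate block, the mean over probe sets, a stricter threshold and each array left out. No sequence was used here.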

Additional observations from a re-analysis of the deposited data

Results flagged for a closer look

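Aux3 was singled out because its flooding change differed between the tissues by a test of the difference itself. The root change minus the leaf change was -1.61 on the log2 scale (limma adjusted p = 0.0181, n = 2 arrays per group), with both flooded arrays below both controls in root and above both controls in leaf, a combination that 5.55% of all probe sets showed. Over the alternatives the difference ran from -1.86 to -1.36 and the adjusted p from 0.0125 to 0.0938. The call was lost without either flooded root array (limma adjusted p = 0.0938 and 0.0656) and without either flooded leaf array (0.084 and 0.0905). Root was flooded for 4 h and leaf for 24 h, so tissue and time cannot be told apart.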

How the results depend on the processing

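The flooding differences of the 2 bright Aux4 probe sets kept their sign under every alternative run. Averaging all 4 probe sets of the gene gave 0.67 in root and 0.97 in leaf (limma adjusted p = 0.109 and 0.0502), -0.30 for the root change minus the leaf change and 0.95 for control root minus control leaf, because the average includes the dim ones. With each array left out in turn, the root change ran from -1.66 to 0.20 for GhiAffx.1868.1.A1_s_at, from 1.44 to 2.16 for GhiAffx.1868.2.A1_at and from -0.71 to 0.61 for GhiAffx.1868.2.S1_a_at. The root change minus the leaf change then ran from -1.85 to 0.0044 for GhiAffx.1868.1.A1_s_at, from -0.29 to 0.10 for GhiAffx.1868.1.S1_a_at, from -0.57 to 0.16 for GhiAffx.1868.2.A1_at and from -0.63 to 0.68 for GhiAffx.1868.2.S1_a_at, for which it was also -0.18 after quantile normalization over all arrays or within each tissue. Control root minus control leaf ran from -0.38 to 0.018 for GhiAffx.1868.1.S1_a_at, from -0.29 to 0.44 for GhiAffx.1868.2.A1_at and from 0.62 to 1.93 for GhiAffx.1868.2.S1_a_at with 1 array left out. It was -0.66, -0.40 and 0.55 for these 3 after quantile normalization over the 8 arrays, and 1.69 for GhiAffx.1868.1.A1_s_at. The cause of these moves was not tested.

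On the auxin list, 1 probe set was called higher in root with each tissue fitted alone, 0 were called lower in root with each tissue alone, array weights or the replicate block, and 4 were called higher in leaf with array weights. With 1 array left out the list counts ran from 1 to 3 higher in root, 0 to 3 lower in root, 0 to 4 higher in leaf and 0 to 2 for the difference between the tissues. Over all probe sets, each tissue alone gave 599 higher and 422 lower in root and 1026 higher in leaf. Array weights gave 849, 550 and 1533. An adjusted p under 0.01 gave 724, 474 and 32, and 535 for the difference between the tissues. The replicate block gave 323 higher in leaf. Control root against control leaf gave 9460 after quantile normalization over the 8 arrays and 7952 with low signals left out, where fewer probe sets were tested. With 1 array left out the counts ran from 612 to 3746 higher and 385 to 3035 lower in root, 0 to 1654 higher in leaf (limma, at least 1267 at an unadjusted p under 0.05) and 473 to 5294 for the difference between the tissues. The count of probe sets at least as high as Aux4 in both tissues, an alternative chosen after seeing the data, ran from 5 to 20.

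The sample titles number the replicates without saying whether equal numbers were paired. The deviations of same-numbered arrays correlated at 0.04 in root and -0.19 in leaf. That shows no strong shared effect of the replicate number, but a single correlation per tissue cannot settle pairing. With the replicate block the bright Aux4 probe sets kept their differences of 1.68 and 1.80 in root and 1.77 and 2.01 in leaf. The Aux3 fall in root then had limma adjusted p = 0.0521, and no other Aux4 or Aux3 call changed. Both dim probe sets lie near the reporters, which limits what their signals can show.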
